A study of Mus musculus with 24 samples.

Results

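The interferon response and antigen presentation genes examined here are a set of 35 named mouse genes, of which 34 were found on the array among 19224 genes that its probes represent. The list was drawn up with earlier results of these data known, and its probes were found by gene symbol or an older synonym of it, with no threshold on a measured value. The set holds 3 cytosolic RNA sensors, 4 transcription factors, 16 antiviral effectors and modifiers, 5 interferon-inducible GTPases and 7 genes of class I antigen processing. No probe was matched to Xaf1, a pro-apoptotic interferon target, so 15 effectors were measured. The 34 genes have 55 probes, and each gene is represented by its brightest probe over all 24 arrays.

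Ku70-/- mouse embryonic fibroblasts (MEFs), a cell line that lacks the end-binding subunit of nonhomologous end joining (gene Xrcc6), were used in every group. These included the controls, so no comparison involves cells with Ku70. The first set of 15 arrays held untreated control cells (labelled 4 hr), cells given 20 mM of the oxidant potassium bromate (KBrO3) for 1 hr and harvested at 4 or 24 hr, and cells co-exposed to KBrO3 and the plastic monomer bisphenol A (BPA, 150 µM, given before, during and after KBrO3) and harvested at the same times. The second set of 9 arrays held its own untreated control and cells given 150 µM BPA alone for 4 or 24 hr according to the labels, to which the Methods add 1 hr. Each group had 3 biological replicates, each on 1 single-color Agilent array. BPA was dissolved in ethanol and the controls are labelled untreated, and no control was labelled 24 hr, so the 24 hr comparisons with control cannot tell time in culture from treatment.

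Type I interferons are secreted when cytosolic or endosomal receptors detect foreign or misplaced nucleic acid. They act through receptor-bound JAK kinases on a transcription factor complex that holds IRF9 and binds interferon-stimulated response elements (ISREs), whereas interferon-gamma acts mainly through gamma-activated sites (GAS). The induced proteins block viral replication and enlarge the supply of peptides that class I molecules carry to the cell surface. IRF1, itself induced, binds ISRE-like sequences and sustains many of these genes without further interferon.

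Promoter sequences are shown for 6 members that lead the comparisons described further on, to let the letters of the response elements be read beside the values. They are the 250 bases before the annotated start, printed 5′ to 3′ on the gene's strand, from RefSeq on GRCm38.p6. Capitals mark the ISRE core GAAANNGAA (or its reverse complement TTCNNTTTC) and the GAS letters TTCNNNGAA, which read alike on both strands, and overlapping matches run together.
Ifit1 at chr19:34640639-34640888, plus strand: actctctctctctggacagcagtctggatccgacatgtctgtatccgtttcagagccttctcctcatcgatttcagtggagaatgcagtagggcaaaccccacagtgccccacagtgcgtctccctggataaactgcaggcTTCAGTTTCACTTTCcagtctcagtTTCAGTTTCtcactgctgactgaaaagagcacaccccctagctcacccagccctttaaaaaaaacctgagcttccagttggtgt
Ifit3 at chr19:34583279-34583528, plus strand: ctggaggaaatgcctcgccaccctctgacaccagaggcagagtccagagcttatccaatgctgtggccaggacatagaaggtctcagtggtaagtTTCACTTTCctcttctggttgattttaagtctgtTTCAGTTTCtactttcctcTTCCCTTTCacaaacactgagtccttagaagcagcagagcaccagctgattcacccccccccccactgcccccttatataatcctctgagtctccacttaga
Rsad2 at chr12:26456453-26456702, minus strand: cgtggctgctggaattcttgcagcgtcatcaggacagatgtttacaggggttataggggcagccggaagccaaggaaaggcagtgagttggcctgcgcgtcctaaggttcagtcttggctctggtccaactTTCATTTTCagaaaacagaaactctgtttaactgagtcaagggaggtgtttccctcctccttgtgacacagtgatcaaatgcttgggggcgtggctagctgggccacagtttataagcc
Gbp2 at chr3:142620413-142620662, plus strand: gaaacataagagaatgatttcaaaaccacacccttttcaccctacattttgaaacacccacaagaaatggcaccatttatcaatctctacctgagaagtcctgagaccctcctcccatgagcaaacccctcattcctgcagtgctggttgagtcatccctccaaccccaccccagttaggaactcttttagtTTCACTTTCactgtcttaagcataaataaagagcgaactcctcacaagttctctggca
Irf1 at chr11:53769764-53770013, plus strand: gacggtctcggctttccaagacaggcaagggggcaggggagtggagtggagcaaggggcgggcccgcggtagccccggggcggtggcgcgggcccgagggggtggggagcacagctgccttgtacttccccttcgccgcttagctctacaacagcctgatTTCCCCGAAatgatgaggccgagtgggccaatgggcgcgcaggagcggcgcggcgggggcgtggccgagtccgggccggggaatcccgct
Oasl1 at chr5:114922990-114923239, plus strand: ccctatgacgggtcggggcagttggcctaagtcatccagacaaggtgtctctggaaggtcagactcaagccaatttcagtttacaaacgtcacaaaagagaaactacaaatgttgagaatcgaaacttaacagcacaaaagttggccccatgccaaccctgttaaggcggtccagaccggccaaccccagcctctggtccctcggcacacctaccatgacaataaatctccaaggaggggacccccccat
Ifit1 had 3 matches to the ISRE core, at −109, −103 and −84 counted from the start to the first base, and Ifit3 had 3, at −155, −121 and −102. Rsad2 had 1 match at −119 and Gbp2 had 1 at −58. Irf1 had a GAS match from −90 to −82 and no ISRE core in this window. Oasl1 held neither set of letters.

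A window from 250 bases before to 50 after the start was listed for 28 of the 35 members and for 27025 genes in all. The ISRE core was present in 15 of the 28 members (53.6%) and in 9.76% of all genes, or 8.56% of all windows. GAS letters were present in 7 of the 28 members (25.0%) and in 9.55% of all genes. Dhx58, Usp18, Mx1, Mx2, Parp14, Iigp1 and Tap2 had no window in the table. A match describes the letters only.

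Levels are given as log2 signal relative to each array's 75th percentile, so that 1 unit is a doubling, and they were compared within a probe and never between probes. Every measured member was well above background on all arrays on which its spot was kept. Spread between replicates differed between the sets, with a median residual SD over all probes of 0.107 log2 in the first and 0.340 in the second. In each comparison a gene was called when the Bonferroni-adjusted p of limma, over all probes tested in the set, was below 0.01 and the fold change exceeded 1.5. These thresholds are those of the Methods, whereas the test differs, since the Methods used an error-weighted analysis of variance. The adjusted p-values printed beside single genes are Benjamini-Hochberg values over the same probes. Arrays of both sets showed fibroblast transcripts, with all 9 fibroblast markers well above background in each control group. Of 9 leukocyte markers, 4 to 7 were well above background on all arrays of a group, depending on the group, and Ptprc, the pan-leukocyte antigen, on no array. The summed level of the 9 was −0.48 to −0.24 in first-set controls, 0.34 to 0.46 on KBrO3 4 hr arrays and 0.19 to 0.20 on co-exposure 4 hr arrays, and −0.94 to −0.59 and −0.64 to −0.59 on those of 24 hr. The lysosomal protein Cd68 was called higher at 4 hr (2.25 and 1.66). Of the 6 leukocyte markers tested, 1 was higher and 1 lower in each first-set group at 24 hr. The 1 endothelial marker tested was higher at 4 and 24 hr after KBrO3 (1.522 and 1.584) and at 4 hr after co-exposure (1.405). It was not well above background in first-set controls, and neither of the 2 epithelial markers tested was called. Fibroblast markers were not constant. Their summed level was 10.6 on the highest first-set control array and 8.80 on the lowest co-exposure 24 hr array, where Thy1 was not well above background. Of the 9, 7 were lower at 24 hr after KBrO3 and 8 at 24 hr after co-exposure. The part of these marker lists in the results below was not tested. In RNA from whole cultures, fewer cells of a kind and less RNA per cell cannot be told apart.

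**Figure D1:**
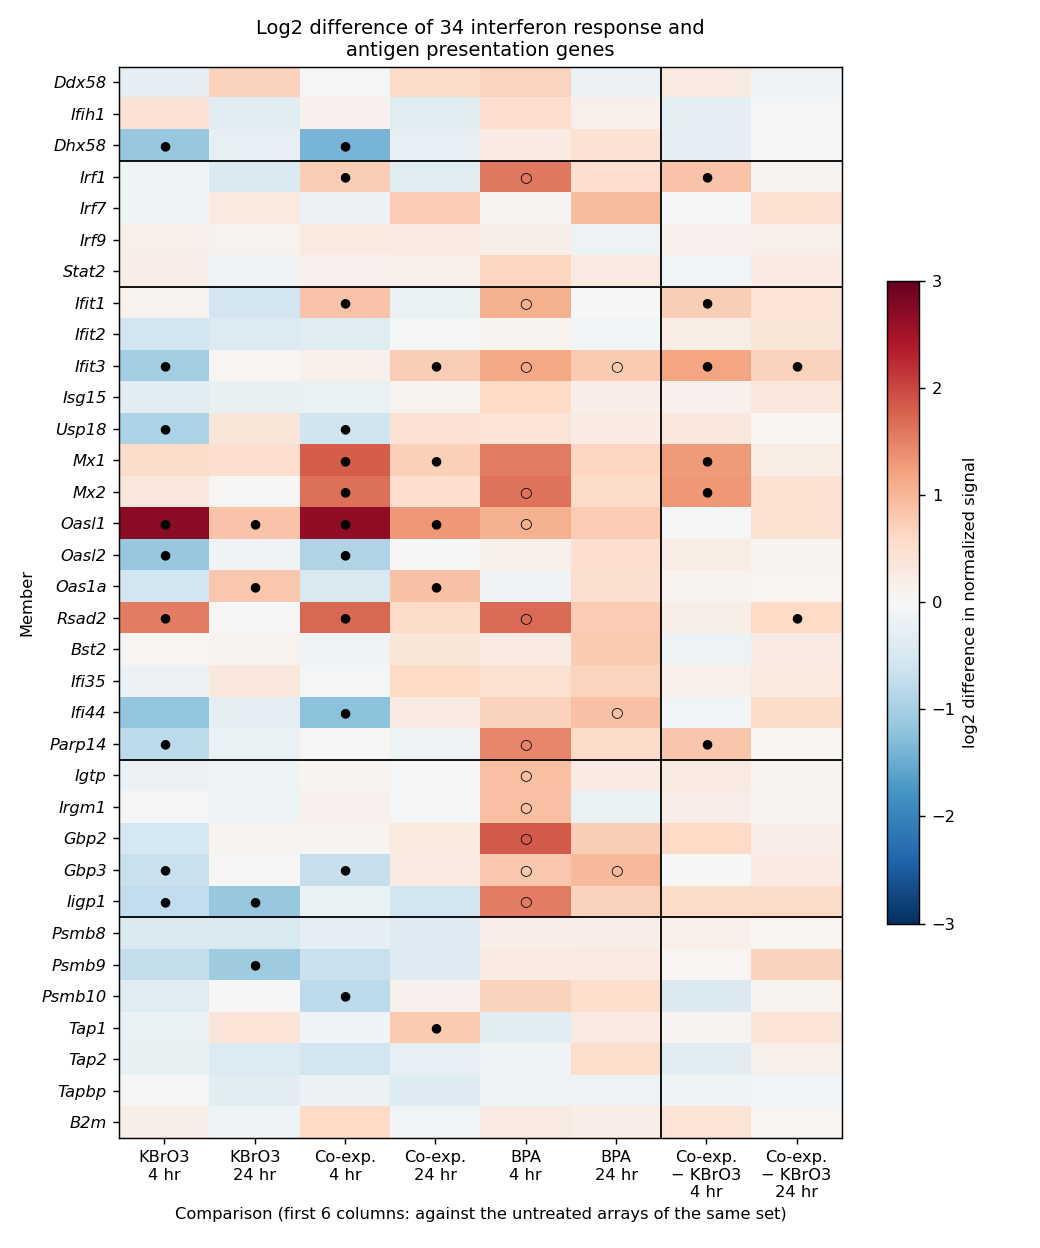
Log2 difference of each of the 34 members (rows, grouped by role) in each comparison (columns). Color gives the difference of group means (n = 3 arrays per group), filled dots mark calls at the Bonferroni and fold thresholds, and open circles mark Benjamini-Hochberg calls for BPA alone. KBrO3 at 4 hr called 2 members higher and 7 lower, whereas BPA alone at 4 hr had 30 of 34 differences above 0.

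At 4 hr after the start of KBrO3 exposure, most members of the set were below control and a pair of antiviral effectors stood far above it. Oasl1, a 2′-5′-oligoadenylate synthetase-like protein that restrains Irf7 translation, and Rsad2 (viperin), a radical SAM enzyme that makes a chain-terminating nucleotide, rose. The RNA sensor Dhx58 (LGP2), the effectors Oasl2, Ifit3, Usp18 and Parp14 and the GTPases Iigp1 and Gbp3 fell. Of the 34 members tested, 2 were called higher and 7 lower, compared with 14.5% and 16.7% of the 14333 genes tested. The median difference was −0.21 over members and 0.02 over all genes, and 24 of the 34 differences were below 0. The 2 higher calls were kept with normexp background correction, but none of the 7 lower calls were. The lower calls numbered 13 with quantile normalization, 4 with all 24 arrays in 1 fit and 1 when only the 6 arrays compared were fitted. Lower calls over all genes moved with these settings too, to 18.9%, 9.71% and 5.54%, and to 4.45% with normexp.

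The level of Oasl1 was 2.03, 2.03 and 2.11 on the 3 control arrays and 4.78, 4.76 and 4.76 on the KBrO3 4 hr arrays. The groups were well separated, with a difference of 2.71 (SE 0.05, 6.55-fold; limma adjusted p = 4.98e-13). At 24 hr the level was 2.90, 2.91 and 2.95, still above every control array, by 0.86 (SE 0.05, adjusted p = 2.03e-08), and below every 4 hr array.

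The level of Rsad2 was 2.47, 2.42 and 2.33 in controls and 3.94, 3.91 and 3.96 at 4 hr. All 4 hr arrays lay above all controls (difference 1.53, SE 0.05, adjusted p = 3.24e-11). At 24 hr it was 2.40, 2.43 and 2.35, within the range of the controls.

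Dhx58 binds viral RNA and tunes signaling by the other sensors. Its level was 2.84, 2.71 and 2.78 in controls and 1.68, 1.64 and 1.61 at 4 hr, and the groups did not overlap (difference −1.13, SE 0.05, adjusted p = 3.44e-10). At 24 hr it was 2.55, 2.50 and 2.54, below each control but uncalled. The other sensors, Ddx58 (RIG-I) and Ifih1 (MDA5), were uncalled at 4 hr, at −0.30 and 0.43.

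Oasl2, the enzymatically active relative of Oasl1, went the opposite way to it. Its level was 5.39, 5.37 and 5.36 in controls and 4.25, 4.26 and 4.21 at 4 hr, a drop seen on every array (difference −1.13, SE 0.04, adjusted p = 1.47e-10). Ifit3, which stabilizes the RNA-binding IFIT complex, was at 5.61, 5.56 and 5.67 in controls and 4.56, 4.60 and 4.58 at 4 hr. The groups were again separate (difference −1.03, SE 0.04, adjusted p = 9.84e-11). By 24 hr both had returned to levels near control, at 5.36, 5.27 and 5.20 for Oasl2 and 5.69, 5.65 and 5.66 for Ifit3.

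The remaining calls at 4 hr were smaller. Usp18, the protease that removes ISG15 and damps interferon receptor signaling, fell by 0.94. Parp14, an ADP-ribosyltransferase, fell by 0.79. The GTPases Iigp1 and Gbp3, which attack pathogen-containing vacuoles, fell by 0.75 and 0.68. Ifi44, an effector of uncertain mechanism, had a difference of −1.16 that missed the Bonferroni threshold (adjusted p = 2.1e-06 by Benjamini-Hochberg). None of the 7 antigen-processing genes was called, and their differences ranged from −0.72 (Psmb9) to 0.19 (B2m).

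At 24 hr after KBrO3, 2 members were called higher and 2 lower, compared with 7.95% and 11.9% of all genes. The median difference was −0.10 over members and −0.07 over all genes. Beside Oasl1, the called riser was Oas1a, a synthetase of the 2′-5′ adenylates that activate RNase L. Its level was 3.98, 3.91 and 4.00 in controls, 3.42, 3.39 and 3.40 at 4 hr and 4.77, 4.77 and 4.79 at 24 hr, so that the 4 hr arrays lay below and the 24 hr arrays above every control (24 hr difference 0.81, SE 0.04, adjusted p = 4.91e-09). Iigp1 was at 5.83, 5.74 and 5.61 in controls and 4.61, 4.62 and 4.57 at 24 hr, lower on every array (difference −1.13, SE 0.06, adjusted p = 4.54e-09). Psmb9, a catalytic subunit of the immunoproteasome, was at 4.77, 4.73 and 4.79 in controls and 3.59, 3.72 and 3.78 at 24 hr, also without overlap (difference −1.07, SE 0.07, adjusted p = 6.96e-08). Scaling to array medians left 1 lower member, and all 24 arrays in 1 fit left 0 higher. With normexp background correction, and with only the arrays compared, 0 were called in each direction.

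From 4 to 24 hr after KBrO3, 7 members rose and 4 fell, compared with 13.9% and 15.8% of all genes. The largest rises were in Oas1a (1.37), Usp18 (1.30), Ifit3 (1.09) and Oasl2 (1.03), with smaller ones in Dhx58 (0.89), Gbp3 (0.71) and Gbp2 (0.60). The falls were in Oasl1 (−1.85), Rsad2 (−1.54), Ifih1 (−0.75) and Ifit1 (−0.69). Of the 7 members called lower at 4 hr, 5 were among those that rose (Usp18, Ifit3, Oasl2, Dhx58 and Gbp3), but both comparisons use the same KBrO3 4 hr arrays, with opposite sign, so the overlap is no separate result. No slide held arrays of both times, so slide and time cannot be told apart in this comparison. All 3 KBrO3 4 hr arrays shared a slide with 1 control array, and within that slide the 9 members called at 4 hr kept their direction, between −1.14 and 2.66. For members whose groups did not overlap, that direction was fixed in advance. For the change from 4 to 24 hr, quantile normalization gave 15 higher and 2 lower, median scaling 8 and 2, only the arrays compared 3 and 2, and normexp 0 and 2. The 4 falls became 2 (Oasl1 and Rsad2 remained) with slide as a random block, and 2 falls were called when any KBrO3 4 hr array, KBrO3 24 hr replicate 2 or 3, co-exposure 4 hr replicate 1 or co-exposure 24 hr replicate 2 was left out.

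**Figure D2:**
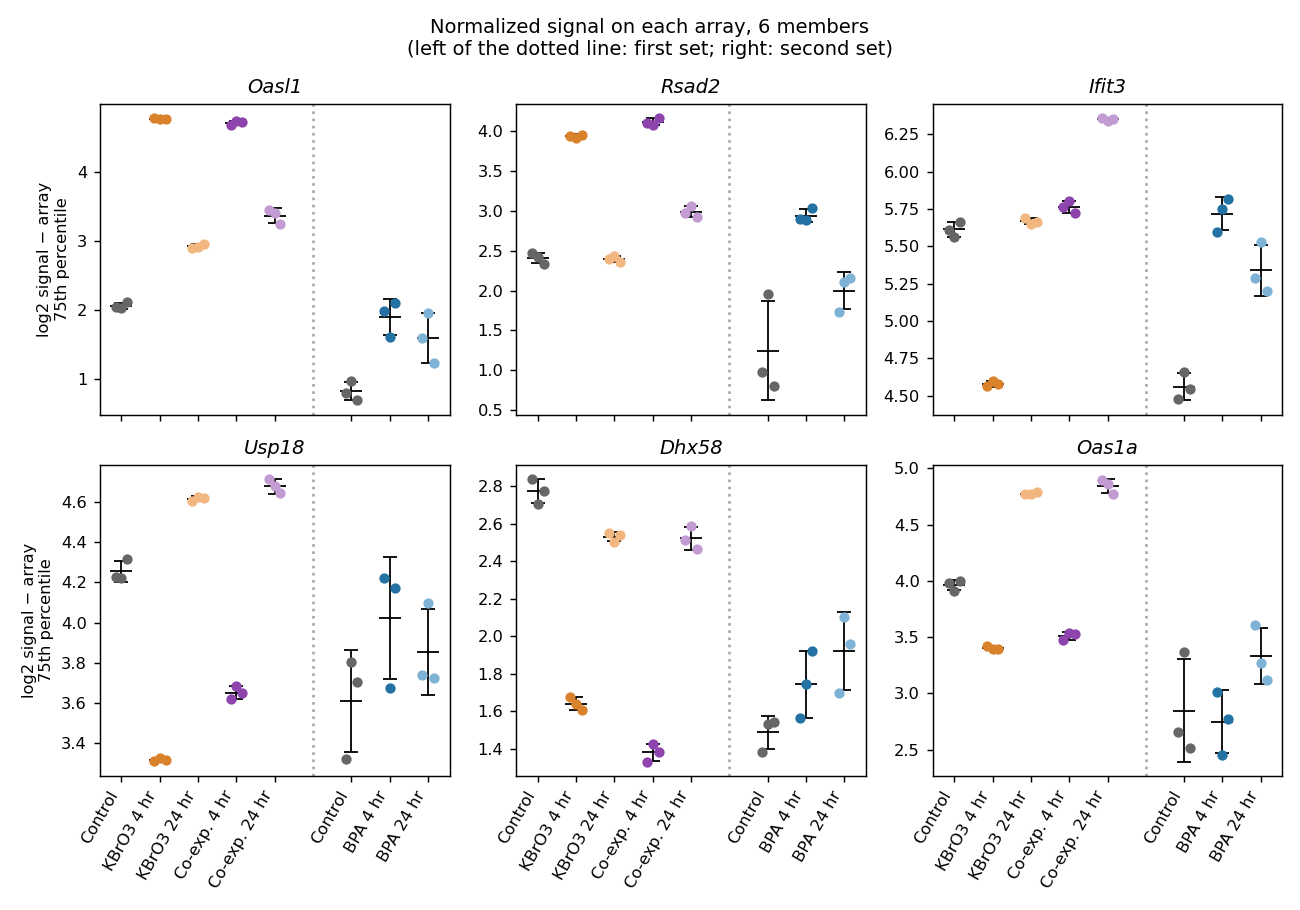
Level on every array (vertical axis, log2 signal minus the array's 75th percentile) of Oasl1, Rsad2, Ifit3, Usp18, Dhx58 and Oas1a by group, with the first set left and the second set right of the dotted line, points for arrays and bars for mean ± SD (n = 3). In the first set Oasl1 and Rsad2 are highest at 4 hr, whereas Oas1a is lowest at 4 hr and highest at 24 hr after KBrO3 and after co-exposure.

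Members were called in both directions at 4 hr after co-exposure, in shares near those of all genes. Oasl1 and Rsad2 were again far above control and were joined by Mx1 and Mx2, dynamin-like GTPases that trap viral nucleocapsids, by Ifit1, which binds RNA lacking the host cap methylation, and by Irf1. Dhx58, Ifi44, Oasl2, Psmb10, Gbp3 and Usp18 were lower. The counts were 6 higher and 6 lower of 34, compared with 16.0% and 19.7% of all genes, and the medians were −0.07 over members and 0.01 over all genes.

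Oasl1 was at 4.67, 4.74 and 4.72 at 4 hr after co-exposure, above all controls (difference 2.65, SE 0.05, adjusted p = 4.58e-13). Rsad2 was at 4.10, 4.08 and 4.17, likewise above all controls (difference 1.71, SE 0.05, adjusted p = 9.71e-12). Mx1 was at 0.65, 0.58 and 0.74 in controls and 2.43, 2.53 and 2.46 after co-exposure, without overlap (difference 1.82, SE 0.05, adjusted p = 6.56e-12). RefSeq lists Mx1 and Mx2 as transcribed pseudogenes in the reference mouse genome, so their probes report transcripts, and Mx1 and Mx2, like Ifit3 and Ifit3b or Oas1a and Oas1g, have near-identical relatives that a probe can also capture. Ifit1 rose by 0.85 and Irf1 by 0.74.

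Dhx58 was at 1.33, 1.43 and 1.38, below every control array (difference −1.39, SE 0.05, adjusted p = 4.38e-11). Ifi44 was at 4.43, 4.47 and 4.36 in controls and 3.21, 3.12 and 3.21 after co-exposure, without overlap (difference −1.24, SE 0.12, adjusted p = 1.03e-06). A dimmer probe of Ifi44 gave 0.13 in the same comparison, so the probes of this gene disagree. Oasl2 was at 4.47, 4.51 and 4.45, below all controls (difference −0.90, SE 0.04, adjusted p = 9.67e-10). Psmb10, another immunoproteasome subunit, fell by 0.79, Gbp3 by 0.69 and Usp18 by 0.61. Leaving out control replicate 3 reduced the 6 lower calls to 3. The co-exposure 4 hr arrays shared no slide with a control array, so this comparison cannot tell slide from treatment, nor can those of both 24 hr groups. With slide as a random block Ifi44 and Psmb10 were lost of the 12 calls. Quantile normalization gave 4 higher and 8 lower, and scaling to array medians 4 and 3. The lower calls numbered 3 with all 24 arrays in 1 fit and 0 with normexp or with only the arrays compared.

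At 24 hr after co-exposure 5 members were called higher and none lower, compared with 10.8% and 12.9% of all genes. The Benjamini-Hochberg threshold called none lower either, and limma gave 24 of 34 members an unadjusted p below 0.05 in 1 direction or the other, against 74.2% of all genes. The medians were 0.14 over members and −0.06 over all genes. Oasl1 was at 3.45, 3.40 and 3.24, above every control array (difference 1.31, SE 0.05, adjusted p = 3.21e-10). Oas1a was at 4.90, 4.86 and 4.77, also above every control (difference 0.88, SE 0.04, adjusted p = 1.61e-09). Tap1, a subunit of the transporter that moves peptides into the endoplasmic reticulum, was at 2.53, 2.44 and 2.65 in controls and 3.39, 3.41 and 3.15 at 24 hr, without overlap (difference 0.77, SE 0.07, adjusted p = 1.46e-06). Ifit3 rose by 0.74 and Mx1 by 0.72. With slide as a random block Tap1 was lost, and the 5 calls became 2 with all 24 arrays in 1 fit, 1 with normexp and 0 with only the arrays compared. Without co-exposure 24 hr replicate 3 the count of higher members was 9, and without control replicate 3 there was 1 lower member.

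From 4 to 24 hr after co-exposure, 11 members rose and 6 fell, compared with 18.1% and 16.4% of all genes. Rises were led by Ifi44 (2.82-fold) and, as log2 differences, Oas1a (1.33), Dhx58 (1.14) and Usp18 (1.03), followed by Gbp3 (0.97), Irf7 (0.92), Psmb10 (0.91), Tap1 (0.91), Oasl2 (0.87), Ifi35 (0.63) and Ifit3 (0.59). The second Ifi44 probe gave −0.47 here, opposite to the called probe, and Ifi44, Ifi35, Irf7 and Tap1 were lost with the replicate number as a block. With slide as a fixed block Ifi35, Ifit3, Irf7 and Tap1 were lost. No slide held co-exposure arrays of both times, so that block links them only through KBrO3 24 hr arrays. All 24 arrays in 1 fit gave 4 rises, normexp 0 rises and 1 fall, and only the arrays compared 0 of each. Irf7 is the transcription factor that amplifies type I interferon production. The falls were in Oasl1 (−1.34), Mx2 (−1.14), Rsad2 (−1.13), Irf1 (−1.09), Mx1 (−1.09) and Ifit1 (−1.06). The 11 rises were reduced to between 6 and 11 when an array was left out, with 6 without co-exposure 4 hr replicate 1 or 3 or without co-exposure 24 hr replicate 1, and 7 without its replicate 2. Scaling arrays to their medians moved the median of all genes in this comparison by 0.44 and gave 12 higher and 1 lower. The dimmer Rsad2 probes did not share the fall, at −0.06 and −0.14, and stood at 1.31 and 1.39 above control at 24 hr, where the brightest probe was uncalled at 0.58.

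The question of what BPA adds to KBrO3 is answered by setting co-exposure against KBrO3 alone at the same time. At 4 hr, 6 members were higher with BPA and none were lower, compared with 2.87% and 3.18% of all genes, and 28 were uncalled. The 6 were Mx2, Mx1, Ifit3, Irf1, Parp14 and Ifit1. The medians were 0.15 over members and −0.02 over all genes, and 21 members were higher and 9 lower without overlap of the arrays, against 37.6% and 40.5% of all genes.

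At 4 hr Mx2 was at 4.35, 4.32 and 4.34 with KBrO3 and 5.62, 5.64 and 5.64 with co-exposure, higher on every array (difference 1.30, SE 0.07, adjusted p = 5.09e-08). Mx1 was at 1.19, 1.18 and 1.24 after KBrO3, below the co-exposure values given above (difference 1.27, SE 0.05, adjusted p = 6.52e-09). Ifit3 was at 5.76, 5.81 and 5.73 after co-exposure, so that the fall seen with KBrO3 was absent and the difference from KBrO3 was 1.19 (SE 0.04, adjusted p = 1.54e-09).

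Irf1 was at 4.71, 4.74 and 4.69 after KBrO3 and 5.57, 5.58 and 5.58 after co-exposure. The groups were separate (difference 0.87, SE 0.03, adjusted p = 5.72e-09), although a dimmer Irf1 probe gave 0.52 and was uncalled. Parp14 was higher by 0.83 and Ifit1 by 0.75. Gbp2, whose difference was 0.59, missed the Bonferroni threshold.

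The largest differences in the other direction were small and uncalled. Psmb10 was at 5.30, 5.29 and 5.26 after KBrO3 and 4.86, 4.84 and 4.88 after co-exposure, lower on every array by 0.42. Tap2, the partner of Tap1, was at 1.89, 1.77 and 1.82 and then at 1.44, 1.54 and 1.51, and Ifih1 was at 3.55, 3.54 and 3.52 and then at 3.25, 3.18 and 3.26. Their differences were −0.33 and −0.30, again without overlap. KBrO3 4 hr and co-exposure 4 hr arrays were on different slides, so slide and treatment cannot be told apart. With slide as a random block, 4 of the 6 calls were kept and Ifit1 and Parp14 were lost, and with normexp Mx1 alone was kept.

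At 24 hr, 2 members were called higher with BPA and none lower, compared with 3.81% and 3.61% of all genes. The medians were 0.22 over members and 0.00 over all genes, and 30 of 34 differences were above 0. Ifit3 was at 5.69, 5.65 and 5.66 after KBrO3 and 6.36, 6.34 and 6.35 after co-exposure, without overlap (difference 0.68, SE 0.04, adjusted p = 3.81e-08). Rsad2 was at 2.40, 2.43 and 2.35 and then at 2.98, 3.06 and 2.92, also separate (difference 0.59, SE 0.05, adjusted p = 1.07e-06). Psmb9 was at 4.48, 4.43 and 4.24 after co-exposure, above all KBrO3 arrays by 0.69, and missed the Bonferroni threshold. The lowest differences were −0.12 for Ddx58, −0.09 for Tapbp and −0.06 for Ifih1, with arrays at 3.14, 3.06 and 3.20 and then 3.06, 2.99 and 2.99 for Ddx58. Tapbp was at 6.31, 6.30 and 6.38 and then at 6.34, 6.35 and 6.03, and Ifih1 was at 2.87, 2.81 and 2.69 and then at 2.63, 2.72 and 2.84, and in both the groups overlapped. On the slide that held 2 arrays of each group, Ifit3 and Rsad2 differed by 0.69 and 0.63. As their groups did not overlap, the sign within the slide was fixed in advance. Quantile normalization, normexp, only the arrays compared and all 24 arrays in 1 fit each left 0 calls. Rsad2 was lost when slide was a fixed block, and the count was 1 without either of KBrO3 24 hr replicates 1 and 3 or of co-exposure 24 hr replicates 1 and 2.

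The change of this difference from 4 to 24 hr was itself tested, and it was negative where the excess with BPA shrank. It was called negative for Mx1 (−1.05, SE 0.07, adjusted p = 5.29e-07) and Irf1 (−0.78, SE 0.05, adjusted p = 2.4e-07), so that 2 members were lower and none higher, compared with 1.86% and 3.10% of all genes. For the other 32 members no change was called, with values from −0.83 (Mx2) to 0.63 (Psmb9). Without co-exposure 24 hr replicate 3 there were 4 lower members, and with median scaling, normexp or all 24 arrays in 1 fit 0. KBrO3 4 hr arrays shared no slide with the other 3 groups of this contrast, so slide cannot be told apart from it.

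In cells given BPA alone for 4 hr, all 5 interferon-inducible GTPases, 6 of 15 effectors and Irf1 rose by the Benjamini-Hochberg criterion, and the other 22 members tested were not called. No antigen-processing gene, RNA sensor or other transcription factor did. The Bonferroni criterion called no member in either direction and 0.106% of all genes higher and 0.00622% lower, and limma gave an unadjusted p below 0.05 to 18 of 34 members, against 20.2% of all genes. With all 24 arrays in 1 fit, Bonferroni called 10 members and 1.88% of all genes higher. When Benjamini-Hochberg adjustment to below 0.05 replaced Bonferroni and the fold limit was kept, 12 members were higher and none lower, compared with 3.07% and 1.64% of the 16088 genes tested in this set. The medians were 0.63 over members and −0.05 over all genes. Arrays of 21 members lay wholly above the control arrays, against 13.5% of all genes, and those of none lay wholly below, against 15.7%.

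Gbp2, a guanylate-binding protein recruited to pathogen vacuoles, was at 1.11, 1.86 and 1.40 on control arrays and 3.45, 3.08 and 3.34 after BPA. The groups were clearly apart (difference 1.83, SE 0.24, 3.56-fold; limma adjusted p = 0.0047). Rsad2 was at 0.98, 1.96 and 0.80 in controls and 2.90, 2.88 and 3.04 after BPA, with control replicate 2 nearest to the BPA arrays (difference 1.69, SE 0.30, adjusted p = 0.0161). Mx2 was at 2.46, 2.90 and 2.52 and then at 4.09, 4.24 and 4.42, without overlap (difference 1.62, SE 0.20, adjusted p = 0.00369).

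Irf1 was at 3.88, 3.78 and 3.55 in controls and 5.07, 5.40 and 5.47 after BPA, higher on every array (difference 1.58, SE 0.19, adjusted p = 0.00306). Iigp1 was at 3.88, 4.15 and 3.81 and then at 5.35, 5.47 and 5.61, equally separate (difference 1.53, SE 0.18, adjusted p = 0.00302). Parp14 was at 3.01, 3.16 and 2.89 and then at 4.25, 4.63 and 4.55, without overlap (difference 1.46, SE 0.19, adjusted p = 0.00426).

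Ifit3 was at 4.48, 4.66 and 4.54 in controls and 5.59, 5.75 and 5.81 after BPA (difference 1.16, SE 0.18, adjusted p = 0.0088). Oasl1 was at 0.80, 0.97 and 0.70 and then at 1.98, 1.61 and 2.10 (difference 1.08, adjusted p = 0.037). Ifit1 was at 3.54, 3.59 and 3.41 and then at 4.61, 4.67 and 4.44 (difference 1.06, adjusted p = 0.0179). Every BPA array of these effectors lay above every control array. The 3 remaining GTPases showed the same separation with smaller differences. Igtp (Irgm3), which guards host membranes from attack by its relatives, was at 4.20, 4.38 and 4.11 and then at 4.96, 5.12 and 5.34 (difference 0.91). Irgm1 was at 2.97, 3.09 and 3.09 and then at 3.94, 3.97 and 3.98 (difference 0.91). Gbp3 was at 3.69, 3.53 and 3.62 and then at 4.28, 4.49 and 4.46 (difference 0.80, adjusted p = 0.0359).

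Mx1 had a difference of 1.56 that was not called (adjusted p = 0.0865), since its controls spread from −1.46 to −0.15, although the BPA arrays, at 1.29, 0.47 and 1.13, were all higher. Tapbp, the chaperone that loads peptide onto class I molecules, had 2 usable BPA 4 hr arrays, because its spot on replicate 1 was an outlier. The 7 antigen-processing genes ranged from −0.31 to 0.69, with Psmb10 highest.

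These 12 calls depended on how slides, replicates and background were treated. A single slide held 2 BPA 4 hr arrays and 1 control, and within it all 12 members were higher, by 0.68 to 2.28. Since the arrays of these 12 did not overlap with controls, that direction was fixed in advance. With slide as a fixed block none of the 12 passed (adjusted p from 0.185 to 0.449), whereas with slide as a random block all 12 passed. Of all genes, 0.00% were higher with the fixed and 3.25% with the random block. With normexp background correction none passed (differences from 0.80 to 1.76, adjusted p from 0.161 to 0.795), and 0.0932% of all genes were higher. The replicate block kept 7 and median scaling 8, where 1.82% and 2.15% of all genes were higher. Leaving out control replicate 3 or BPA 4 hr replicate 1 or 2 left 6 calls, and leaving out BPA 4 hr replicate 3 left 5. Among the 9 called members with a promoter window, 7 had the ISRE core, as had 8 of the 19 other members with a window. The others, here and in the next sentence, include Xaf1, which was not measured and had no match. The split differed between comparisons, with the core in 4 of the 9 members that rose from 4 to 24 hr after co-exposure and in 11 of the 19 others, and in 2 of 4 called higher at 4 hr after co-exposure and 13 of 24 others.

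**Figure D3:**
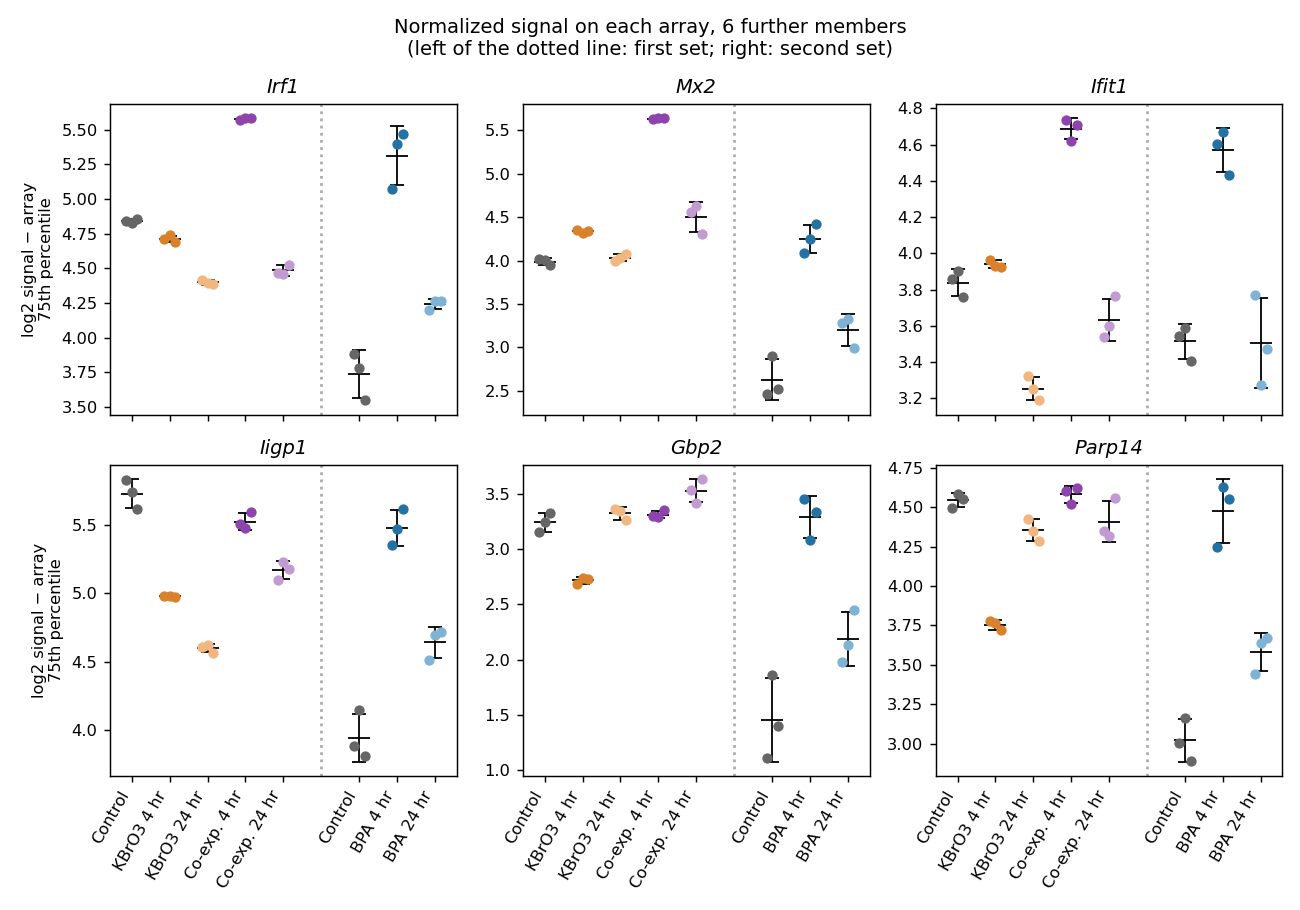
Level on every array (vertical axis, log2 signal minus the array's 75th percentile) of Irf1, Mx2, Ifit1, Iigp1, Gbp2 and Parp14 by group, with the second set right of the dotted line, points for arrays and bars for mean ± SD (n = 3). In each panel the 3 BPA 4 hr arrays lie above the 3 controls of their set and above the BPA 24 hr arrays.

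At 24 hr of BPA alone, 3 members were higher and none lower by the Benjamini-Hochberg criterion, compared with 1.82% and 2.54% of all genes. No member was called by Bonferroni, where 0.00622% of genes were higher and 0.0249% lower, and limma gave 14 members an unadjusted p below 0.05, against 20.9% of all genes. The medians were 0.49 over members and 0.02 over all genes, and arrays of 15 members lay wholly above those of the controls, against 13.9% of all genes, and those of 1 member wholly below, against 11.5%. Gbp3 was at 4.50, 4.75 and 4.51, above all controls (difference 0.97, SE 0.17, adjusted p = 0.0196). Ifi44 was at 2.41, 2.54 and 2.47 in controls and 3.58, 3.46 and 3.01 at 24 hr, without overlap (difference 0.88, SE 0.20, adjusted p = 0.0488). Ifit3 was at 5.29, 5.53 and 5.20, above all controls (difference 0.78, SE 0.18, adjusted p = 0.0485).

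Gbp2, Irf1, Mx2, Iigp1 and Parp14 had 24 hr differences of 0.73, 0.50, 0.57, 0.70 and 0.56, none of them called. None of the 3 calls passed with slide as a fixed block (adjusted p from 0.107 to 0.15) or in the fit with the replicate number as a block, and none or 1 was left without any single control array, any single BPA 4 hr array (which share the estimate of spread), or BPA 24 hr replicate 1 or 2. Of all genes, 0.00% were higher with slide as a fixed block and 0.920% with the replicate block. On the 2 slides that held 1 array of each group, the 3 members were higher by 0.63 to 1.13. Their arrays did not overlap with controls, so this direction was fixed in advance.

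**Figure D4:**
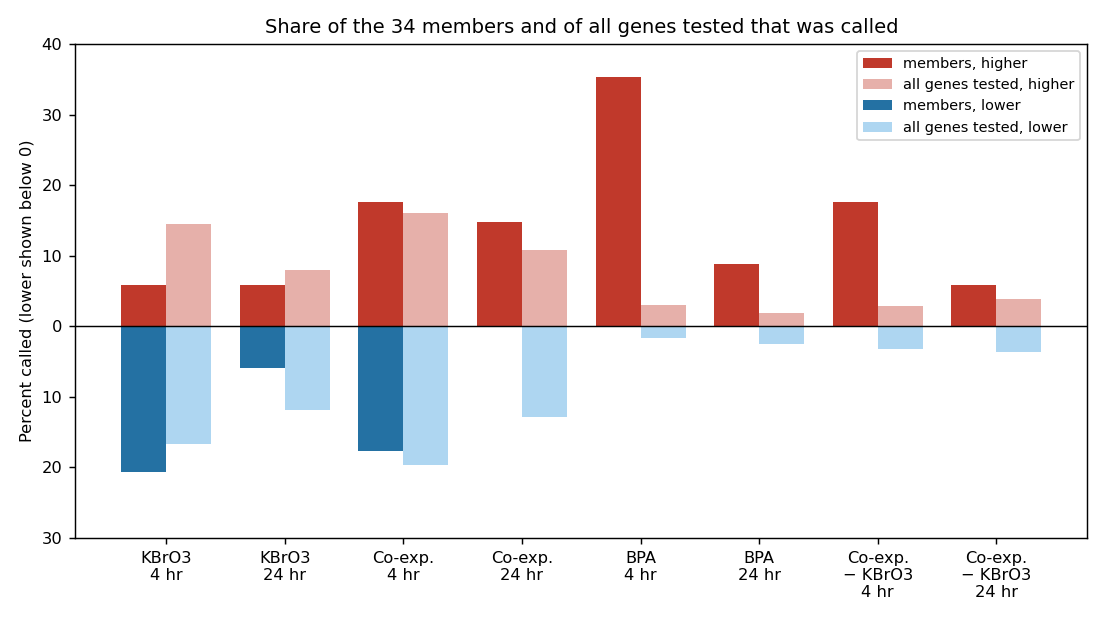
Share of members and of all genes tested called higher (bars above 0) or lower (bars below 0) in 8 comparisons, in percent, with Bonferroni calls for the first set and Benjamini-Hochberg calls for BPA alone. For BPA alone at 4 hr, 35.3% of members and 3.07% of all genes were higher.

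BPA was compared with untreated cells in one set and with KBrO3-treated cells in the other, and the comparisons share no array. At 4 hr, 5 of the 6 members higher with co-exposure than with KBrO3 were among the 12 higher with BPA alone, namely Mx2, Ifit3, Irf1, Parp14 and Ifit1, which is 83.3% of the first list and 41.7% of the second. Over all 14263 genes tested in both sets, 93 were called in both, which is 22.6% of the 412 higher with BPA added and 20.2% of the 461 higher with BPA alone. Both differences were above 0 in 21 of 34 members and 26.0% of all genes at 4 hr, and in 26 members and 35.8% of all genes at 24 hr. Across members the differences correlated with Pearson r = 0.657 (n = 34 genes), and across all 14263 genes tested in both sets with r = 0.174. At 24 hr the values were 0.473 and 0.535. Genes are not independent replicates, and these correlations describe the arrays only.

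Sizes differed between the settings. Irf1 differed by 1.58 with BPA alone and 0.87 with BPA added, Gbp2 by 1.83 and 0.59 and Parp14 by 1.46 and 0.83, whereas Ifit3 differed by 1.16 and 1.19. For Oasl1 the values were 1.08 and −0.06, and for Iigp1 1.53 and 0.54. The sets were normalized separately and had different spread, and no test of the difference between these effects was made. Untreated controls also differed in level between the sets, for Irf1 with means of 4.84 in the first and 3.74 in the second.

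**Figure D5:**
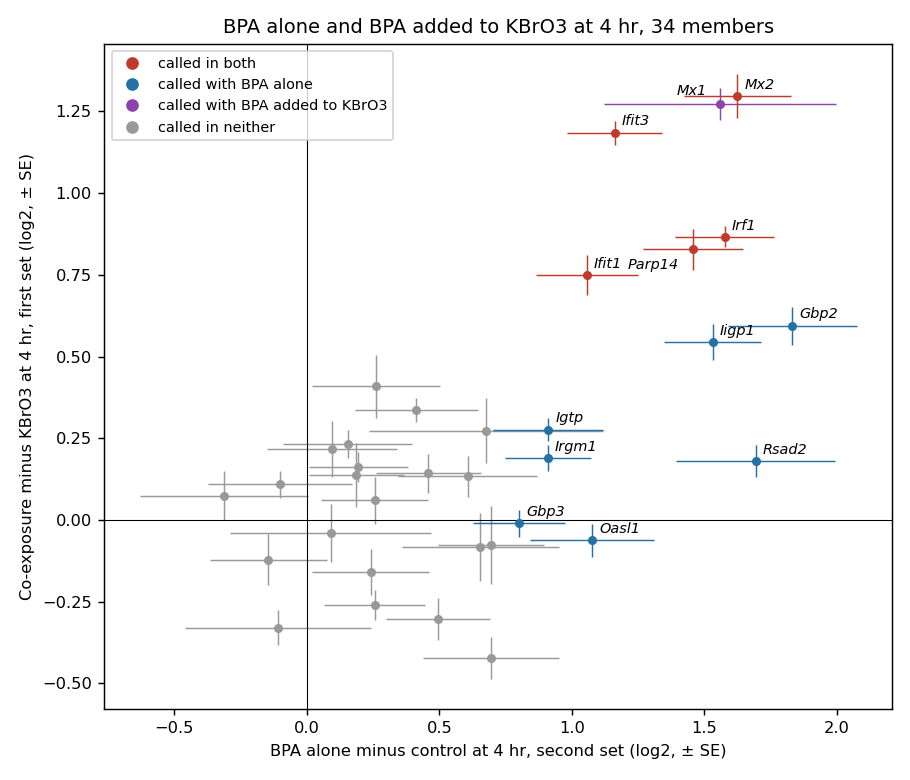
Log2 difference at 4 hr for BPA alone against control (horizontal axis) and for co-exposure against KBrO3 alone (vertical axis), with 1 point per member, bars for SE and colors for the calls. Of the 34 members, 21 lie above 0 on both axes, with Mx2, Mx1 and Ifit3 highest on the vertical axis and Gbp2, Rsad2 and Mx2 farthest right.

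Genes that make, sense and relay interferon were taken from separate lists. Ifnb1 encodes interferon-beta. Its level was −1.29, −1.21 and −1.46 in first-set controls, −1.44, −1.40 and −1.50 at 4 hr after KBrO3 and −0.63, −0.64 and −0.56 at 4 hr after co-exposure. Co-exposure arrays thus lay above both other groups, by 0.71 over control (limma adjusted p = 9.51e-07) and 0.84 over KBrO3 (adjusted p = 1.56e-06). At 24 hr it was −4.00, −3.91 and −3.85 after KBrO3 and −4.07, −4.22 and −4.08 after co-exposure, far below the controls (differences −2.60 and −2.80). In the second set it was −4.78, −4.97 and −4.66 in controls and −2.47, −1.80 and −2.05 at 4 hr of BPA, without overlap (difference 2.69, adjusted p = 0.000862). This call was lost with slide as a fixed block, where 0.00% of all genes passed. At 24 hr of BPA the Ifnb1 level was −4.09, −4.37 and −4.74 and uncalled.

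Of the 15 ligands, receptors and signaling genes, 2 were higher and 8 lower at 4 hr after KBrO3, where 14.5% and 16.7% of all genes were called. These shares, and those given above for the other comparisons, hold for the counts that follow. The kinase Tyk2 fell by 1.48 and the receptor chain Ifngr1 by 1.36, whereas Jak1 rose by 1.02 and the feedback inhibitor Socs1 by 0.63. After co-exposure 2 were higher and 7 lower at 4 hr, and the counts at 24 hr were 0 and 4 after KBrO3 and 0 and 6 after co-exposure. With BPA alone at 4 hr, Ifnb1, Socs1 (1.61) and Socs3 (0.95) were higher by Benjamini-Hochberg and none were lower, and at 24 hr none were called. The 3 calls were lost with slide as a fixed block.

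Among the 10 tested genes of upstream sensing, 2 were higher and 3 lower at 4 hr after KBrO3, including Cgas, the cytosolic DNA sensor, which rose by 2.34. Cgas was 2.06 higher at 4 hr after co-exposure, where 1 gene was higher and 2 were lower. Zbp1, a sensor of Z-form nucleic acid, fell by 1.37 at 4 hr after KBrO3, was 0.96 higher with BPA than without at 24 hr after KBrO3, and was the only one of the 10 called at 24 hr of BPA alone, at 1.67 by Benjamini-Hochberg. The call with BPA alone was lost with slide as a fixed block and with normexp, where 0.00% of all genes passed.

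Of 33 other interferon-stimulated genes tested in the first set, none were higher and 15 lower at 4 hr after KBrO3, among them Ifi47 (−1.64), Oas2 (−1.59), Gbp7 (−1.57) and Pml (−1.40). After co-exposure 1 was higher at 4 hr and 9 lower, the riser being Cd274 (PD-L1), an interferon-inducible T-cell inhibitor, at 1.63. Against control at 24 hr, 0 were higher and 7 lower after KBrO3, compared with 7.95% and 11.9% of all genes. At 24 hr after co-exposure 2 were higher and 8 lower, compared with 10.8% and 12.9%. From 4 to 24 hr, 11 rose and 2 fell after KBrO3, and 12 rose and 2 fell after co-exposure. With BPA added to KBrO3 at 4 hr, Cd274 (1.24) and Tor3a (0.88) were higher and none were lower. With BPA alone at 4 hr, 9 of 34 were higher by Benjamini-Hochberg and none lower, compared with 3.07% and 1.64% of all genes. With slide as a fixed block 0.00% of all genes passed, so none of these 9 calls was kept. The 9 were led by Cd274, which was at −2.48, −2.36 and −3.41 in controls and −0.16, 0.18 and 0.12 after BPA, without overlap (difference 2.79, adjusted p = 0.00168). Ifi47 (1.61), Gbp6 (1.36) and Tor3a (1.25) followed.

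Other class I presentation genes had medians below that of all genes in both 24 hr groups of the first set, with few calls. The median of the 11 other class I genes was −0.56 at 24 hr after KBrO3, where 1 was called lower, and −0.67 from 4 to 24 hr, where 1 was higher and 2 lower. Of these 11 genes, H2-K1 was lower at 24 hr after KBrO3 (−0.61) and Tapbpl lower at 4 hr after co-exposure (−0.84), and these were the only calls against control in the first set. None were called with BPA alone. Cd74, the class II invariant chain, was lower at 24 hr after KBrO3 (−1.77) and also after co-exposure, and the other 3 tested class II genes were uncalled against control. Of the constitutive proteasome subunits that Psmb8, Psmb9 and Psmb10 replace, Psmb7 was higher in all 4 KBrO3-containing groups, by 0.59 to 0.72.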

How the data were processed

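Total RNA of Ku70-/- MEFs was hybridized to 24 single-color Agilent arrays. The authors deposited the scanner output, whose values are fluorescence intensity per spot (Feature Extraction 9.5.3.1 for the first set and 12.0.0.7 for the second per the file headers, 12.0 in the submitters' notes). The deposited series table holds the same intensity, equal in 1080432 of 1080432 values within a relative tolerance of 1e-06. It was not normalized between arrays, and signals were read with Python 3.11.15 and converted here to log2 minus each array's 75th percentile over non-control spots. Outlier spots were dropped and spots of 1 probe averaged. Of 41174 probes, 32362 were named through RefSeq (GRCm38.p6) by symbol, synonym or accession, and 129 took their accession's gene because the printed symbol now belongs to another gene, which affects Gbp3.

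Testing within a set took the probes flagged well above background throughout 1 group or more (27298 and 31791 probes). From 57.7% to 68.1% of probes were well above background on first-set arrays and from 76.4% to 79.4% on second-set arrays, and the number of arrays limits precision. Each set was fitted alone in limma 3.58.1 (R 4.3.3), two-sided, with the Bonferroni and Benjamini-Hochberg thresholds given above. The steps were tested on simulated data that held no slide effect. The members, the other gene lists and the tests were chosen with earlier results of these data known. Array values were printed for called members with the 3 largest rises and falls against control, all members called with BPA alone, and the 3 largest differences each way between co-exposure and KBrO3, and a selection of other members was added. Genes outside the set were chosen after their values were seen, and 1 gene counted in their lists is not reported by name. Alternatives covered scaling, background correction (normexp, offset 50), dim-probe filter, probe choice, arrays in the fit, threshold, slide and replicate blocks, and single arrays left out. The labels' replicate numbers did not pair samples: residuals of same-numbered arrays had mean correlations of −0.05 (first set) and 0.00 (second set). P-values measure the spread between these arrays.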

Additional observations from a re-analysis of the deposited data

Results flagged for a closer look

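For 2 members the difference between co-exposure and KBrO3 alone changed from 4 to 24 hr by a test of that change in limma. For Mx1 the change was −1.05, from a difference of 1.27 at 4 hr to 0.23 at 24 hr. For Irf1 it was −0.78, from 0.87 to 0.09. Both kept the call with slide as a random block and with the replicate number as a block. Neither was called with normexp background correction or with scaling to array medians, which moved the median of all genes in this comparison by 0.31. A dimmer Irf1 probe gave −0.42 and was uncalled.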

How the results depend on the processing

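No called member changed direction under any alternative fitted to its brightest probe. Of 46 values from other probes of called members, 2 had the opposite sign, both of Ifi44 (0.13 for co-exposure at 4 hr and −0.47 for co-exposure from 4 to 24 hr). Over all comparisons and alternatives, 1592 values of called members kept their call and 436 lost it, while 80 values of uncalled members gained one and 7002 did not. Scaling moved whole distributions, by up to 0.44 on the log2 scale for the median of all genes (co-exposure 24 hr against 4 hr, scaled to array medians). With that scaling the split of all genes called went from 412 higher and 456 lower to 127 and 325 for co-exposure against KBrO3 at 4 hr, from 546 and 518 to 451 and 230 at 24 hr, from 1551 and 1842 to 2045 and 1037 for co-exposure at 24 hr, from 1139 and 1701 to 1039 and 1011 for KBrO3 at 24 hr, from 2588 and 2355 to 3488 and 1022 for co-exposure from 4 to 24 hr, and from 444 and 266 to 329 and 54 for the change in the difference. Quantile normalization took KBrO3 from 4 to 24 hr from 1986 and 2261 to 2460 and 1746. In the counts of members that follow, the cause of a change was not tested, and calls over all genes also moved with the setting.

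With quantile normalization 13 members were lower at 4 hr after KBrO3, 0 were called between co-exposure and KBrO3 at 24 hr, where Ifit3 and Rsad2 fell under the fold limit (0.53 and 0.56), and 15 rose and 2 fell from 4 to 24 hr after KBrO3. Over all genes the shares were 18.9% lower, 3.48% higher and 3.66% lower, and 17.2% rising and 12.2% falling. With median scaling 1 member was lower at 24 hr after KBrO3, 3 were lower at 4 hr after co-exposure, 1 was higher with BPA added at 24 hr, 2 fell from 4 to 24 hr after KBrO3 and 1 after co-exposure, 0 showed a negative change in the difference, and 1 was higher at 24 hr of BPA alone by Benjamini-Hochberg. Of all genes, 7.05%, 17.6%, 3.15%, 9.97%, 7.13%, 0.377% and 1.40% were called, in the same order.

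With normexp background correction the lower calls at 4 hr became 0 after KBrO3 and 0 after co-exposure, and those at 24 hr after KBrO3 became 0 in each direction. Over all genes the shares were 4.45% and 5.87% lower at 4 hr, and 1.49% higher and 3.24% lower at 24 hr. The same correction left 1 member higher at 24 hr after co-exposure, 1 with BPA added at 4 hr and 0 at 24 hr, 0 rises and 2 falls from 4 to 24 hr after KBrO3, 0 and 1 after co-exposure, 0 negative changes, and 0 members at each time of BPA alone by Benjamini-Hochberg. In the same order, 2.68%, 0.258%, 0.433%, 3.70%, 4.70%, 5.25%, 5.11%, 0.0767%, 0.0932% and 0.00% of all genes were called. In the second set this correction used the median raw signal, a choice made after seeing the data.

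When only the arrays compared were fitted, 1 member was lower at 4 hr after KBrO3, 0 in each direction at 24 hr, 0 lower at 4 hr and 0 higher at 24 hr after co-exposure, 0 higher with BPA added at 24 hr, 3 higher and 2 lower from 4 to 24 hr after KBrO3, 0 and 0 after co-exposure, and 0 higher at 24 hr of BPA alone by Benjamini-Hochberg. Of all genes, 5.54%, 0.398% and 2.57%, 6.68%, 0.565%, 0.0837%, 3.10% and 5.20%, 2.65% and 4.97%, and 0.361% were called, in the same order. With all 24 arrays in 1 fit, 4 were lower at 4 hr and 0 higher at 24 hr after KBrO3, 3 lower at 4 hr and 2 higher at 24 hr after co-exposure, 0 higher with BPA added at 24 hr, 2 fell after KBrO3 and 4 rose after co-exposure from 4 to 24 hr, and 0 showed a negative change. In the same order, 9.71%, 2.49%, 11.8%, 4.21%, 0.935%, 9.14%, 9.94% and 0.349% of all genes were called. The fit of all 24 arrays called 10 members higher at 4 hr and 2 at 24 hr of BPA alone by Bonferroni, and 10 at 24 hr by Benjamini-Hochberg. Of all genes it called 1.88%, 1.18% and 7.38% higher.

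The Benjamini-Hochberg threshold gave 11 rises from 4 to 24 hr after KBrO3, 2 positive and 4 negative changes in the difference, and 12 and 3 members higher at 4 and 24 hr of BPA alone. In the same order, the shares of all genes were 19.5%, 13.2%, 13.8%, 3.07% and 1.82%. Counting any probe of a gene gave 4 lower at 24 hr after KBrO3, 8 higher at 24 hr after co-exposure and 1 positive change. Without the filter on dim probes 1 member was higher at 24 hr of BPA alone, against 1.01% of all genes. With slide as a fixed block 1 member was higher with BPA added at 24 hr, 7 rose after co-exposure from 4 to 24 hr, and 0 were higher at each time of BPA alone. Of all genes, 3.57%, 8.89%, 0.00% and 0.00% were called. Slide as a random block left 2 falls from 4 to 24 hr after KBrO3, against 11.2% of all genes.

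With the replicate number as a block, 1 member was higher with BPA added at 24 hr, 2 fell after KBrO3 and 7 rose after co-exposure from 4 to 24 hr, and 7 and 0 were higher at 4 and 24 hr of BPA alone by Benjamini-Hochberg. In the same order, 2.55%, 12.8%, 14.6%, 1.82% and 0.920% of all genes were called. The block moved no other count by over 1.5 times.

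With single arrays left out, the counts at 4 hr after KBrO3 were 2 to 3 higher and 6 to 9 lower, and at 24 hr 2 to 2 and 2 to 3. After co-exposure they were 6 to 7 and 3 to 6 at 4 hr and 4 to 9 and 0 to 1 at 24 hr. With BPA added they were 5 to 7 higher at 4 hr and 1 to 3 at 24 hr. From 4 to 24 hr they were 6 to 8 and 2 to 4 after KBrO3 and 6 to 11 and 6 to 7 after co-exposure, and 2 to 4 changes in the difference were negative. For BPA alone the Benjamini-Hochberg counts were 5 to 11 at 4 hr and 0 to 2 at 24 hr.

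The spread between second-set arrays and 3 arrays per group limit what BPA alone can show.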
